A study of Mus musculus with 2148 samples.

Results

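Aire and 8 genes whose protein products have been reported to work with it were followed through single epithelial cells of the mouse thymus. The 9 genes (Aire, Sirt1, Top1, Top2b, Prkdc, Xrcc5, Xrcc6, Hipk2 and Jmjd6) were taken by symbol, with earlier results of these data known, from the 48437 genes of the count table. All 9 were found and all 9 passed the filter on low counts.

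Thymus cells of C57BL/6 mice had been sorted, 1 cell to a well, either as cortical epithelial cells (cTEC, Ly51-positive) or as medullary epithelial cells with high or low surface MHC class II (mTEChi and mTEClo), and each was sequenced on its own by RamDA-seq, which primes total RNA along its whole length. Of all cells, adult wild-type (WT) mTEChi were 31.3% (620 cells), mTEClo 18.0% and cTEC 3.89% (77 cells). Adult Aire knockout (AireKO in the labels, Aire-KO here) mTEChi were 17.1% and mTEClo 7.78%, and 1-day-old WT mTEChi were 8.64%, mTEClo 6.26% and cTEC 7.02%. Single cells were not taken as replicates. As the labels do not number the mice, the cells of a group with the same age and sex were summed into 1 mouse pool, which may hold several mice. Adult WT mTEChi gave 4 pools (pool 1, 4-week males, 71.6% of the cells; pool 2, 5-week males, 12 cells; pool 3, 6-week males, 82 cells; pool 4, 4-week females, 82 cells) and adult WT mTEClo gave 3 (pool 1, 8-week males, 60.8% of the cells; pool 2, 5-week males, 74 cells; pool 3, 4-week males, 66 cells). Every other group was 1 pool: 5-week males for both Aire-KO sorts, 6-week males for adult cTEC, and newborns of unknown sex. The Aire-KO mice came from an established Aire-deficient line, and what was deleted from the gene is not given in the sources used here. Levels are given as CPM, the reads of a gene per 1000000 reads on genes in the summed cells.

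A cell had between 203010 and 1823784 reads (median 692880). The sort labels were compared with marker genes. The 5 cTEC markers summed to 4986 and 5010 CPM in adult and newborn cTEC, to 1826.6 CPM in newborn mTEClo and to at most 522.1 CPM as a group mean elsewhere. The 5 cycling markers ranged over pools from 51.5 to 295.5 CPM in adult WT mTEChi and from 3.6 to 10.5 CPM in adult WT mTEClo, where 4 of the 5 were under 1 CPM. The 5 tuft cell markers ranged from 47.1 to 353.5 CPM in adult WT mTEChi, with 1 of 5 under 1 CPM, and from 527.5 to 4665 CPM in adult WT mTEClo. The tuft marker Trpm5 was at 103.45 CPM in mTEClo pool 1, 1345.3 in pool 2 and 1723.3 in pool 3. Thymocyte markers (7 genes) ranged from 50.3 to 168.95 CPM and from 30.1 to 80.02 CPM in the same sorts, with 1 and 4 of the 7 under 1 CPM. They were highest of all groups in adult cTEC, at 385.7 CPM, and their part in the levels of that pool was not tested. The adult sorts were never processed in the same experimental batch, so batch and sort cannot be told apart in adults, whereas each of the 5 newborn batches held all sorts. Aire-KO and WT cells, and newborn and adult cells, were never in one batch either, so genotype and age cannot be told apart from batch.

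Aire, the autoimmune regulator, is the nuclear protein through which mTECs transcribe many genes otherwise restricted to other tissues, so that developing T cells meet those antigens in the thymus. It binds no strong sequence motif of its own and acts through partners on DNA breaks, chromatin and paused polymerase. The topoisomerases Top1 and Top2b cut and rejoin DNA to release its twist. The DNA-dependent protein kinase, made of the catalytic subunit Prkdc and the Ku dimer Xrcc5 and Xrcc6, binds broken DNA ends and directs end joining. Sirt1 is a deacetylase that removes acetyl groups from Aire, Hipk2 is a nuclear kinase reported to phosphorylate it, and Jmjd6 is an oxygenase that acts on splicing factors and has been linked to the splicing of Aire transcripts.

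Promoters are shown for Aire and Sirt1, because these were the genes of the set that were higher together in mTEChi. The RefSeq promoter table (GRCm38.p6) had a window of 300 bases, 250 before the start and 50 from it on, for 8 of the 9 genes, with 2 windows for Hipk2 and none for Prkdc. Both printed stretches are the 250 bases before the start, on the minus strand (chr10:78043611-78043860 for Aire and chr10:63339036-63339285 for Sirt1), and capitals mark motif matches on either strand. The motifs searched were the TATA box as TATAAA, the binding motif of Sp-family factors known as the GC box as GGGCGG, and the motif of the factor NF-Y as CCAAT.
Aire: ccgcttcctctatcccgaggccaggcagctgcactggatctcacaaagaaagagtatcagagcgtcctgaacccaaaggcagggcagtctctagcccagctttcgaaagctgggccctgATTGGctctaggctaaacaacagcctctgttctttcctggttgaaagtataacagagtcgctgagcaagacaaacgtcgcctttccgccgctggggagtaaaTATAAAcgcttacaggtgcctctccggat
Sirt1: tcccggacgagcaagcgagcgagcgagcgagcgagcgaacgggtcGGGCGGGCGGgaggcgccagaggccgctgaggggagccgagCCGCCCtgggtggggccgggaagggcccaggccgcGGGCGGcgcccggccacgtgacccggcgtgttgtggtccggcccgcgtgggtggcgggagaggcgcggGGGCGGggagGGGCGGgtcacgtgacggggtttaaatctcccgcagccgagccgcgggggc
The Aire window held a TATAAA at position -29 and a CCAAT read on the opposite strand at -131, no GGGCGG, 55.3% G and C and 16 CpG pairs. The Sirt1 window held 7 matches to GGGCGG, 6 of them before the start and the first 2 overlapping, with neither TATAAA nor CCAAT, 79% G and C and 47 CpG pairs. Among the windows of the set only that of Aire held TATAAA. Of all 32851 promoter windows 13.6% held TATAAA, 35.7% GGGCGG and 37.4% CCAAT, and the medians were 52.7% G and C and 7 CpG pairs. The RefSeq start of Sirt1 lies within the longer gene model of the annotation used for positions here (GENCODE M21 on GRCm38). These are matches of letters and not measured binding sites.

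Aire (ENSMUSG00000000731, chromosome 10, 78030022 to 78043610, minus strand) was at 1109.7, 1844.6, 1125.1 and 1789.7 CPM in pools 1 to 4 of adult WT mTEChi, a mean of 1467.3 ± 404.7 (SD, n = 4). It was at 37.1, 39.5 and 26.1 CPM in the 3 pools of adult WT mTEClo (34.2 ± 7.13). Among the single pools, newborn mTEChi had 1469.3 CPM. Below it came newborn mTEClo with 86.2 CPM, newborn cTEC with 58.01 CPM and Aire-KO mTEChi with 26.1 CPM, and the lowest levels were those of adult cTEC (3.57 CPM) and Aire-KO mTEClo (0.153 CPM). Newborn mTEChi thus lay within the range of the adult WT mTEChi pools, far above every other group, and both Aire-KO pools lay below all WT pools of their sort. Outside mTEChi the order of the neighbouring groups is uncertain, because Aire-KO mTEChi (26.1 CPM) lay at the lowest adult WT mTEClo pool and the newborn mTEClo batches ranged from 16.9 to 303.2 CPM and the newborn cTEC batches from 17.1 to 161.3.

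**Figure D1:**
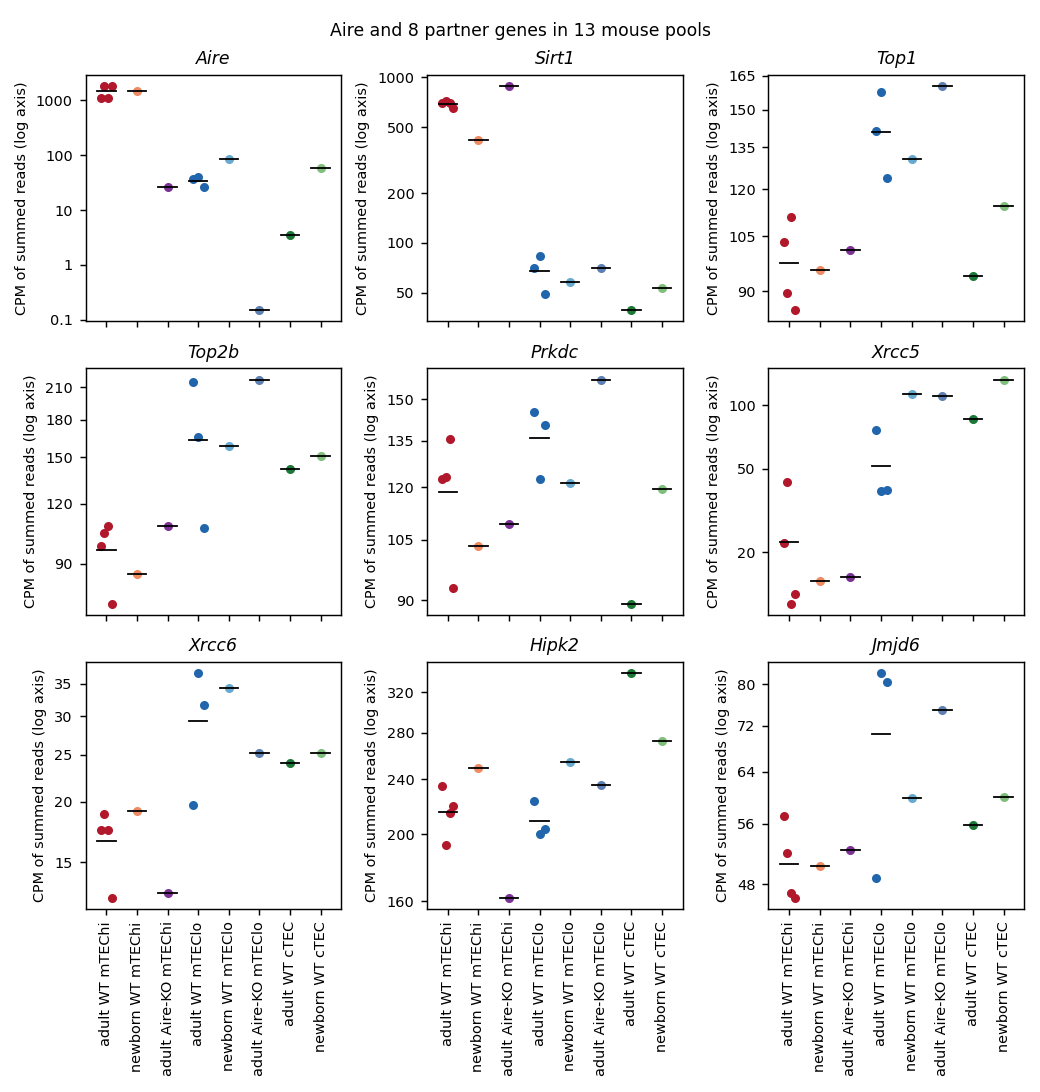
Levels of the 9 genes in the 13 mouse pools. Each panel is 1 gene, each point is 1 pool and each short line is the mean of a group, in CPM on a log axis whose range differs between panels. Aire and Sirt1 stand highest in the mTEChi groups, apart from Aire in Aire-KO mTEChi (26.1 CPM), while Xrcc5 is at 22.02 CPM or less in every mTEChi pool but one.

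Cells differed widely in Aire even within mTEChi. All 620 adult WT mTEChi cells had at least 1 Aire read, with a median of 1052.4 CPM, a 10th percentile of 63.9 and a 90th percentile of 2642.7. In newborn mTEClo and in both cTEC groups a few cells carried most of the Aire reads. The 3 newborn mTEClo cells at or above 1000 CPM held 63.9% of the Aire reads of that pool, which was at 31.9 CPM without them. The 2 such cells among newborn cTEC held 53.6% of the reads, and 27.3 CPM remained without them. In adult cTEC 5 cells held 90.95% of the Aire reads. The 5 cells with the most Aire held 31.6% of the reads in adult WT mTEClo, 31.6% in Aire-KO mTEChi and 8.402% in newborn mTEChi.

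Aire reads were also counted in knockout cells. At least 1 read was present in 64.2% of Aire-KO mTEChi cells (exact 95% interval 58.8 to 69.3%), with a median of 3.65 CPM and a highest value of 745.4, and in 2.60% of Aire-KO mTEClo cells (0.712 to 6.52%). With every cell thinned to 200000 reads, which left out no cell, these shares were 50.9% (45.4 to 56.3%) and 1.95% (0.404 to 5.59%), against 99.4% and 71.99% in the adult WT sorts and 9.09% (3.73 to 17.8%) in adult cTEC. The intervals are Clopper-Pearson intervals over cells and cover counting error only. The median depths were 812729 and 532927 reads in the Aire-KO sorts and 862537 in adult cTEC. Counts per gene do not show which exons these reads cover, so whether they lie outside the deleted stretch was not tested. Aire also shares exon bases with Dnmt3l on the other strand, and reads were counted without strand. Dnmt3l was at 99.5 CPM in Aire-KO mTEChi and 1.02 CPM in Aire-KO mTEClo, and its part in these reads was not tested.

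The comparison of adult WT mTEChi with adult WT mTEClo asked which of these genes differ between medullary cells sorted by high and low MHC class II. As the mTEClo pools also held more of the tuft markers, it is not a contrast of maturity alone. Sirt1 was 8.88-fold higher in mTEChi, Aire was 37.3-fold higher, and Top1 was 1.66-fold lower. The remaining 6 genes did not pass the test of edgeR's quasi-likelihood model over the pools (Benjamini-Hochberg adjusted p under 0.05), which called 13% of 39971 genes. Among the 9 genes the median log2 fold change was -0.66, against 0.30 over all genes tested (0.40 with another scaling, DESeq2's size factors), and 7 of the 9 had an unadjusted p under 0.05, as had 34.6% of all genes.

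Sirt1 (ENSMUSG00000020063, chromosome 10, 63319005 to 63381704, minus strand) was at 698.8, 721.6, 697.2 and 651.3 CPM in pools 1 to 4 of adult WT mTEChi (692.2 ± 29.5, n = 4) and at 70.8, 83.2 and 49.3 CPM in the 3 mTEClo pools (67.8 ± 17.2). The lowest mTEChi pool was far above the highest mTEClo pool, and the mTEChi pools lay closer together for Sirt1 than for Aire. The log2 fold change was 3.15 (SE 0.23, edgeR adjusted p 7.32e-04), beside 5.22 for Aire (SE 0.33, adjusted p 6.65e-04). Both genes were called in all 16 alternative settings, including each one that left out a pool, with log2 fold changes of 2.94 to 3.33 for Sirt1 and 5.03 to 6.35 for Aire. Sirt1 shares 65 exon bases with the antisense gene Gm16145, and the authors counted reads without strand. The level of Gm16145 in adult WT mTEChi was 1.92 CPM, and its part in the Sirt1 counts was not tested. Aire shares 67 exon bases with Dnmt3l, whose own level was 83.4 CPM in the adult WT mTEChi pools and 1.18 CPM in those of mTEClo.

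Sirt1 was also in a separate range from mTEChi in every other sort. It was at 70.03 CPM in Aire-KO mTEClo, 57.7 in newborn mTEClo, 53.02 in newborn cTEC and 39.4 in adult cTEC. The first 3 of these lay within the range of the adult WT mTEClo pools, and adult cTEC lay below it. In single adult WT mTEChi cells Sirt1 had a median of 414.2 CPM, a 90th percentile of 1867.8 and a highest value of 5324, and in adult WT mTEClo cells a median of 60.7 and a 90th percentile of 127.2.

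**Figure D2:**
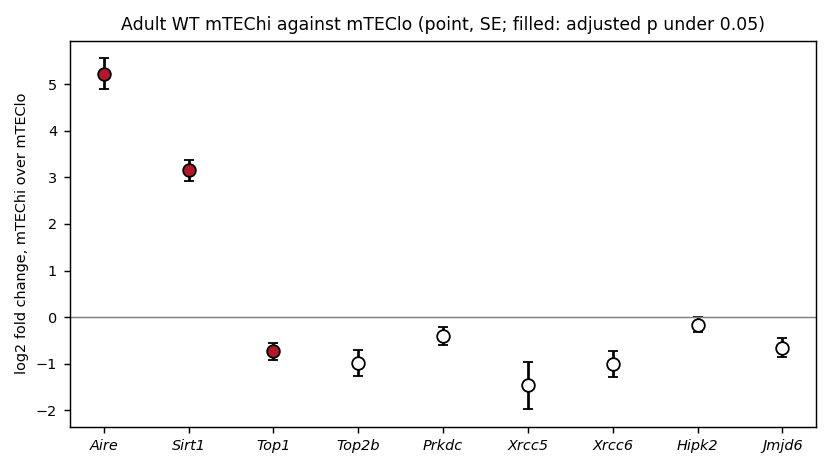
Log2 fold change of each gene in adult WT mTEChi over adult WT mTEClo. Points are edgeR estimates over 4 and 3 pools, bars are 1 standard error on each side, and filled points have an adjusted p under 0.05. Aire (5.22) and Sirt1 (3.15) lie above 0 and the other 7 genes lie below it, Top1 (-0.73) as the only one of them past the threshold.

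Both topoisomerase genes pointed the other way. Top1 (ENSMUSG00000070544, chromosome 2, 160645888 to 160722764) was at 103.4, 89.6, 110.97 and 85.4 CPM in the mTEChi pools (97.3 ± 11.9) and at 141.5, 157.6 and 123.8 CPM in the mTEClo pools (140.96 ± 16.9). The 2 sets of pools did not overlap, and the log2 fold change was -0.73 (SE 0.18, edgeR adjusted p 0.0333). This call was kept in 5 of 16 alternatives, and it was lost without any single pool other than mTEClo pool 3, with adjusted p of 0.0514 to 0.107. Without cells holding 5 or more Mki67 reads it was -0.75 with an adjusted p of 0.0716. With age and sex in the model it was -0.67 with one of 0.247, so the size changed little in both. The model with age and sex left 1 residual degree of freedom, against 5 in the main fit.

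Top2b (ENSMUSG00000017485, chromosome 14, 16365179 to 16435462) was at 98.1, 104.25, 107.8 and 74.3 CPM in the mTEChi pools and at 216.1, 165.2 and 107.1 CPM in the mTEClo pools. Its mTEClo pool 3 lay within the mTEChi range, and the log2 fold change of -0.99 (SE 0.28) had an edgeR adjusted p of 0.0534. It was 0.0304 without that pool and 0.0348 with DESeq2. Top2b shares exon bases with Rarb, which was at no more than 6.08 CPM in any group.

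None of the 3 subunits of the DNA-dependent protein kinase passed the test, and all 3 estimates lay below 0. Xrcc5 (ENSMUSG00000026187, chromosome 1, 72307421 to 72394952), the larger Ku subunit, was at 22.02, 43.1, 11.4 and 12.6 CPM in the mTEChi pools (22.3 ± 14.6) and at 76.5, 39.0 and 39.6 CPM in the mTEClo pools (51.7 ± 21.5). The mTEChi pool of 12 cells reached the level of the lower mTEClo pools, and 1 cell held 43.6% of its Xrcc5 reads. The log2 fold change was -1.46 (SE 0.51, edgeR adjusted p 0.0883). It was called in 5 of 16 alternatives, among them without mTEChi pool 2 (-1.89, adjusted p 0.0266) and without cells holding 5 or more Mki67 reads (-1.96, adjusted p 0.0321). With age and sex in the model, which left 1 residual degree of freedom, it was -0.49 (adjusted p 0.581). Without mTEClo pool 1 it was -0.96 (adjusted p 0.236). Over experimental batches in place of pools it was -1.62 (adjusted p 3.80e-04). Several batches come from the same pool, so that spread is partly technical.

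In the other groups Xrcc5 was also lower in the mTEChi pools. It was at 15.3 CPM in Aire-KO mTEChi and 14.5 in newborn mTEChi, and at 110.55 in Aire-KO mTEClo, 112.7 in newborn mTEClo, 132.4 in newborn cTEC and 85.6 in adult cTEC. Every mTEChi pool but the smallest was thus at 22.02 CPM or less, and every other pool at 39.0 or more. The batches did not all follow this, since Aire-KO mTEChi batch 14 was at 42.6 CPM, above 2 of the adult WT mTEClo pools, and the other 3 batches were at 6.25 to 14.5 CPM. Without batch 14, left out after its value was seen, the Aire-KO mTEChi pool was at 9.03 CPM. The 2 adult WT mTEClo pools with the most Trpm5 had the least Xrcc5 and the most Xrcc6 and Jmjd6, and the part of tuft cells in these levels was not tested.

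Xrcc6 (ENSMUSG00000022471, chromosome 15, 81987835 to 82040085), the other Ku subunit, was at 17.5, 18.9, 17.5 and 12.7 CPM in the mTEChi pools and at 19.6, 36.8 and 31.6 CPM in the mTEClo pools. The lowest mTEClo pool was near the highest mTEChi pool, and the log2 fold change was -0.997 (SE 0.28, edgeR adjusted p 0.0501). It was called in 5 of 16 alternatives, among them DESeq2 (adjusted p 0.00992), while the adjusted p was 0.322 with age and sex in the model and 0.160 without mTEClo pool 2. Desi1, with which Xrcc6 shares exon bases, was also at a lower level in mTEChi (34.999 CPM) than in mTEClo (87.6 CPM), and its part in the Xrcc6 counts was not tested.

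Prkdc (ENSMUSG00000022672, chromosome 16, 15637866 to 15842235), the catalytic subunit, was at 122.4, 123.3, 135.6 and 92.9 CPM in the mTEChi pools and at 145.2, 122.4 and 140.5 CPM in the mTEClo pools. These ranges overlapped, and the log2 fold change of -0.41 (SE 0.19; by edgeR, adjusted p 0.166) passed the threshold in none of the 16 alternatives. Prkdc was lowest in adult cTEC (89.2 CPM) and highest in Aire-KO mTEClo (157.8 CPM).

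Neither the kinase nor the oxygenase passed the test between the sorts. Hipk2 (ENSMUSG00000061436, chromosome 6, 38694390 to 38876165, minus strand) was at 234.2, 192.6, 214.8 and 219.4 CPM in the mTEChi pools and at 223.1, 199.8 and 203.5 CPM in the mTEClo pools, with a log2 fold change of -0.16 that did not exceed its SE (0.16; edgeR adjusted p 0.508). Jmjd6 (ENSMUSG00000056962, chromosome 11, 116837432 to 116843449, minus strand) was at 57.1, 51.9, 46.9 and 46.4 CPM in mTEChi and at 48.7, 82.3 and 80.5 CPM in mTEClo. Its mTEClo pool 1 lay inside the mTEChi range, and the log2 fold change was -0.66 (SE 0.20, edgeR adjusted p 0.0639). Without that pool Jmjd6 was called (-0.81, adjusted p 0.0229), and over experimental batches it was at -0.24 (adjusted p 0.149). Jmjd6 shares exon bases with Mettl23, which was at 18.5 and 20.6 CPM in these sorts.

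The 5 newborn batches allowed the sorts to be compared within a batch. Aire was higher in mTEChi than in mTEClo in 5 of 5 batches, with a median log2 ratio of CPM of 4.25 (1.93 to 6.34), and Sirt1 in 5 of 5, with 3.14 (1.76 to 3.303). Xrcc5 was lower in mTEChi in 5 of 5 batches by a wide margin, at -2.90 (-3.52 to -2.46). Smaller ratios in one direction in all 5 batches were those of Xrcc6 (-1.11), Top2b (-0.89), Top1 (-0.60) and Jmjd6 (-0.21). Prkdc was lower in 4 of 5 (-0.28) and Hipk2 in 3 of 5 (-0.05). The labels do not say whether the batches share mice, so these counts carry no p. The ratios were taken from CPM with no further scaling, so small ones such as that of Jmjd6 are not read as a difference of the gene. How many of all genes kept one direction in 5 of 5 batches was not counted.

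Within the same batches newborn cTEC lay nearer to newborn mTEClo than to mTEChi for Xrcc5 and Sirt1. Newborn mTEClo also carried the cTEC markers (1826.6 CPM, against 484.1 in newborn mTEChi), and their part in these ratios was not tested. Xrcc5 was lower in mTEChi than in cTEC by a median log2 ratio of -3.24 (5 of 5 batches) and Sirt1 higher by 3.33 (5 of 5). Between cTEC and mTEClo the median ratios were 0.22 for Xrcc5 and -0.28 for Sirt1. For Aire the ratio between cTEC and mTEClo had a median of -0.06 and ranged from -4.15 to 1.80, which includes both directions.

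Relatives of the partners did not all share their pattern in adult WT mTEChi against mTEClo. Of 13 other sirtuin, topoisomerase and HIPK genes, 1 was higher in mTEChi and 2 were lower, beside 13% of all genes called. The median log2 fold change of the 13 was -0.28. Like that of the 9 genes (-0.66) it lay below the 0.30 of all genes, so a lower median was not particular to the partners. The higher one was Top2a, the topoisomerase of dividing cells, with a log2 fold change of 4.37 (SE 0.72; by edgeR, adjusted p 0.00996), beside cycling markers that also stood higher in the mTEChi pools. Hipk1 (-1.13, adjusted p 0.0134) and the mitochondrial sirtuin Sirt5 (-1.25, adjusted p 0.0345) were lower. None of the other 5 sirtuins was called (-0.45 to 0.41).

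Of 7 further end-joining genes (Lig4, Xrcc4, Nhej1, Paxx, Dclre1c, Poll and Polm) edgeR called 0, with 1 at an unadjusted p under 0.05 (Polm, -0.79, adjusted p 0.0854), beside 34.6% of all genes. The 7 had a median log2 fold change of 0.11. Among 33 tested genes of 34 for other proteins associated with Aire, 1 was higher and 7 were lower in mTEChi, beside 13% of all genes called in either direction, and their median log2 fold change was -0.32, against 0.30 over all genes. The higher one was Rad50 (1.19, SE 0.19, adjusted p 0.00899), a subunit of the complex that processes DNA breaks. The lower ones included the chromatin factor Atf7ip (-1.10, adjusted p 0.00407), the RNA helicase Ddx17 (-0.94, adjusted p 0.00796), the SUMO ligase Pias1 (-0.64, adjusted p 0.0326) and the polyadenylation factor Cpsf6 (-0.82, adjusted p 0.0439). Parp1, a sensor of DNA breaks, was not called (0.41, SE 0.30, adjusted p 0.350). These lists had 0 calls in each of the other comparisons, where edgeR called 0% of all genes, or 0.0573% in adult cTEC against mTEClo.

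The comparison of Aire-KO with WT mTEChi asked whether the partners respond to the loss of Aire. edgeR called 0 of the 9 genes and 0% of all genes at 1 pool against 4 (4.37% had an unadjusted p under 0.05, while DESeq2 called 2.29% and limma 0.0893%). Aire itself had the smallest adjusted p of all genes, 0.239, at a log2 fold change of -5.69 (SE 0.57), and it was called in 5 of the 16 alternatives. Sirt1 was at 889.8 CPM in Aire-KO mTEChi, above all 4 WT pools (651.3 to 721.6), with a log2 fold change of 0.49 (SE 0.28; by edgeR, adjusted p 0.925), and the Aire-KO batches (680.7 to 1154.04 CPM) overlapped the WT batches (526.3 to 922.8). Hipk2 was at 162.1 CPM, below all 4 WT pools (192.6 to 234.2), with -0.29 (SE 0.24). Top2b (107.876 CPM) lay just above the highest WT pool (107.84 CPM), with a change within its SE (0.29, SE 0.41). How many of all genes lay outside the range of the 4 WT pools was not counted.

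In mTEClo edgeR likewise called 0 of the 9 genes and 0% of all genes between Aire-KO and WT (3.55% at an unadjusted p under 0.05, with 0.81% called by DESeq2 and 0.0107% by limma). The change of Aire was -7.79 on the log2 scale (SE 0.66, edgeR adjusted p 0.0632), on 14 reads in all Aire-KO cells. Xrcc5 was at 110.55 CPM in Aire-KO mTEClo, above the 3 WT pools, with 1.08 (SE 0.73, adjusted p 1.00). Top1 (160.5 CPM), Top2b (218.1), Prkdc (157.8) and Hipk2 (235.4) also lay above the 3 WT pools, with log2 fold changes within their SE. How many of all genes lay above the 3 WT pools was not counted. Trpm5 in the Aire-KO mTEClo pool was at 415.1 CPM, between WT pool 1 and WT pool 2. For the difference between the Aire-KO effects of the 2 sorts edgeR called 0 of the 9 genes and 0% of all genes (3.44% at an unadjusted p under 0.05, with 0.57% called by DESeq2 and 0% by limma). For Aire this difference was 2.10 (SE 0.62, adjusted p 1.00), and it turned to -3.83 with limma on the mean over cells of log2(CPM + 1).

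Newborn and adult WT mTEChi were compared for age. edgeR called 0 of the 9 genes and 0% of all genes (2.01% at an unadjusted p under 0.05, with 0.115% called by DESeq2 and 0% by limma). Sirt1 was at 417.7 CPM in newborn mTEChi, below all 4 adult pools, with a log2 fold change of -0.69 (SE 0.31; by edgeR, adjusted p 1.00). All 5 newborn batches (274.5 to 520.7 CPM) lay below the lowest adult batch (526.3 CPM). Aire did not show this, with 1469.3 CPM inside the adult range and a change of 0.03 (SE 0.39). In mTEClo edgeR called 0 of the 9 genes and 0% of all genes for the same contrast (9.93% at an unadjusted p under 0.05, with 5.99% called by DESeq2 and 6.96% by limma), and Aire had the smallest adjusted p of the 9, with 1.24 (SE 0.38, adjusted p 0.330).

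Adult cTEC were compared with adult mTEClo, where edgeR called 0.0573% of 40148 genes and 0 of the 9 (3 at an unadjusted p under 0.05, among 10.2% of all genes, while DESeq2 called 7.01% and limma 2.70%). The change of Aire was -3.22 on the log2 scale (SE 0.49, edgeR adjusted p 0.0634). Hipk2 reached its highest level of all groups in adult cTEC, 340.5 CPM against 199.8 to 223.1 in the mTEClo pools, with 0.75 (SE 0.23, edgeR adjusted p 0.307). Sirt1 was at -0.74 (SE 0.31, adjusted p 0.460). Within the newborn batches the log2 ratio of Hipk2 in cTEC over mTEClo was above 0 in 5 of 5, with a median of 0.12 (0.02 to 0.19). This ratio is small and of CPM with no further scaling, so it is not read as a difference of the gene.

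The level of each partner was then followed along the Aire level of the cell in adult WT mTEChi, within each of the 8 batches of at least 20 cells (97.3% of the cells) and after thinning. Cells of a batch were processed together and may come from the same mice, so the correlations describe the cells and carry no p. Sirt1 had a median Spearman correlation with Aire of 0.594, positive in 8 of 8 batches (0.525 to 0.704). Over 8936 genes the median was -0.03 and the central 90% lay between -0.29 and 0.32, and Sirt1 ranked 18th from the top. Leaving out cells with 5 or more Mki67 reads (51.1% of the cells left) gave 0.608, and unthinned cells gave 0.598.

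**Figure D3:**
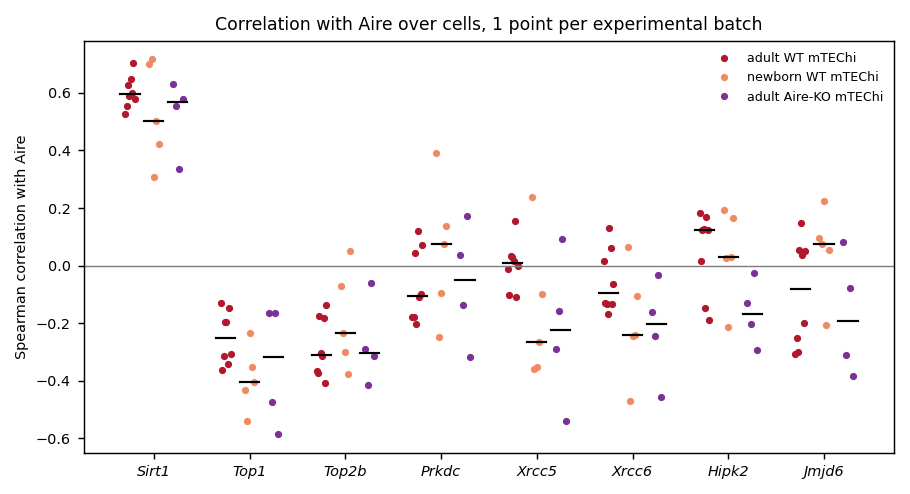
Spearman correlation of each partner with Aire over single mTEChi cells. Each point is 1 experimental batch and each short line is the median of a group. Sirt1 lies above 0 in all batches of the 3 groups and Top1 below 0 in all of them. In adult WT mTEChi Prkdc, Xrcc5, Xrcc6, Hipk2 and Jmjd6 lie on both sides.

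Top2b and Top1 were lower in cells with more Aire. Their median correlations were -0.31 (-0.41 to -0.14) and -0.25 (-0.36 to -0.13), negative in 8 of 8 batches each, and Top2b lay beyond the 5th percentile of all genes. The remaining partners were close to 0 or mixed in sign, with 0.12 for Hipk2, -0.11 for Prkdc, -0.10 for Xrcc6, -0.08 for Jmjd6 and 0.01 for Xrcc5. Jmjd6 rested on the choice of pools, with -0.27 without pool 1 (2 batches, 25.6% of the cells) and 0.04 without pool 3 or pool 4 (7 batches each). The proliferation genes Top2a (0.11) and Mki67 (0.07) were also near 0, and Parp1 was at 0.24, positive in 8 of 8.

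Levels by Aire bin gave the size of these relations. Of the adult WT mTEChi cells 13.2% had under 100 CPM of Aire, 35.5% had 100 to 1000, 45.5% had 1000 to 3000 and 5.81% had 3000 or more. Sirt1 was at 152.8 ± 49.6 CPM (n = 3 pools), 456.7 ± 125.1 (n = 3), 841.03 ± 109.6 (n = 4) and 1548.9 ± 279.96 (n = 3) in these bins. Each bin was above the one before it by more than the spread of either pool set. In the lowest bin the 3 pools were at 117.6, 209.5 and 131.2 CPM, all above the highest adult WT mTEClo pool (83.2 CPM).

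Top2b went from 129.2 ± 38.4 CPM in the lowest bin through 104.9 ± 16.5 and 88.2 ± 19.9 to 56.5 ± 4.76 in the highest. Top1 went from 139.3 ± 35.3 through 112.1 ± 4.22 and 89.9 ± 9.52 to 64.8 ± 26.98. For both the outer bins differed by more than their pool spread while neighbouring bins mostly did not. Hipk2 was at 162.5 ± 46.2, 210.2 ± 18.3, 215.7 ± 71.7 and 152.2 ± 43.8 CPM, with no order beyond the spread of the pools.

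**Figure D4:**
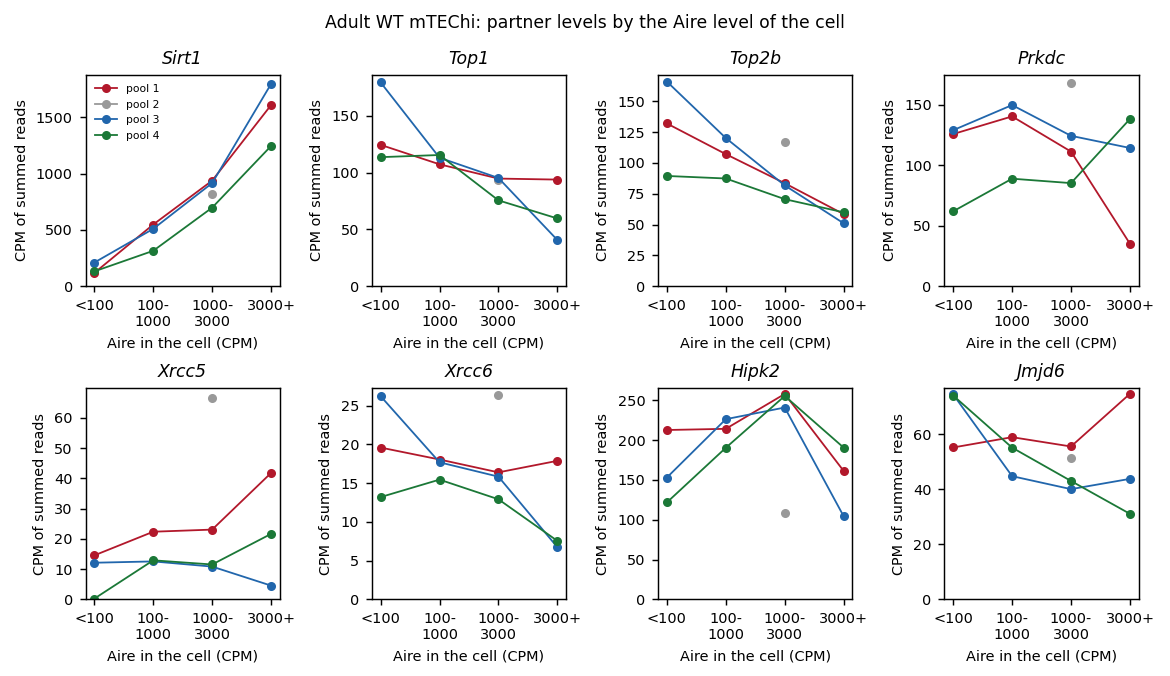
Levels of the 8 partners by the Aire level of the cell in adult WT mTEChi. The horizontal axis gives the Aire bin of the cell in CPM, the vertical axis the CPM of the summed cells of a bin, and each line is 1 pool (bins with under 5 cells are left out, so that pool 2 is a single point). Sirt1 stands higher in each higher bin in pools 1, 3 and 4, and Top2b stands lowest in the highest bin in all 3.

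Newborn mTEChi (5 batches, all cells) gave a similar picture for Sirt1, with a median correlation of 0.502 (5 of 5 positive), and for Top1 with -0.40 (0 of 5). Top2b ranged from -0.38 to 0.05 and Parp1 from -0.21 to 0.45 over these batches, so each had both signs there. Sirt1 was at 100.2, 229.7, 545.6 and 663.4 CPM from the lowest to the highest bin, below the adult mean in each. In adult WT mTEClo, where Aire was low, the correlation of Sirt1 was 0.11 (4 of 5 batches positive), and in newborn mTEClo it was 0.17 (4 of 4).

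In Aire-KO mTEChi the same relation was measured on the residual Aire reads (4 batches, all cells). Sirt1 had a median correlation of 0.567 (4 of 4 positive), and 0.348 among the 64.2% of cells with an Aire read (4 of 4). It was at 415.1 CPM in the cells with no Aire read, 1063.6 in those with under 100 CPM and 1959.7 in the 19 cells with 100 to 1000 CPM. The proliferation genes Mki67 (135.9, 36.5 and 5.18 CPM) and Top2a (88.5, 38.01 and 13.3 CPM) were also lower from set to set. These sets join the cells of all 4 batches. Within batch 14 the correlation with Aire was -0.42 for Mki67 and -0.38 for Top2a. In the other batches it was 0.06 to 0.15 for Mki67 and 0.06 to 0.23 for Top2a. The part of cycling cells and of batch 14 in the values of these sets was not tested. Top1 was at 136.4, 85.1 and 59.4 CPM and Top2b at 140.1, 93.9 and 62.1 CPM in these 3 sets, with correlations of -0.32 and -0.30 (0 of 4 positive). Among cells with an Aire read the correlation of Top1 was -0.08 (2 of 4 positive). Xrcc5 was at 26.7, 10.0 and 3.20 CPM and Hipk2 at 186.4, 156.6 and 64.4 CPM over these sets. Their correlations were -0.22 (1 of 4 positive) and -0.17 (0 of 4), and their difference from WT cells was not tested. Batch 14 had the lowest correlation with Aire for Top1 (-0.58), Xrcc5 (-0.54) and Hipk2 (-0.29).

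**Figure D5:**
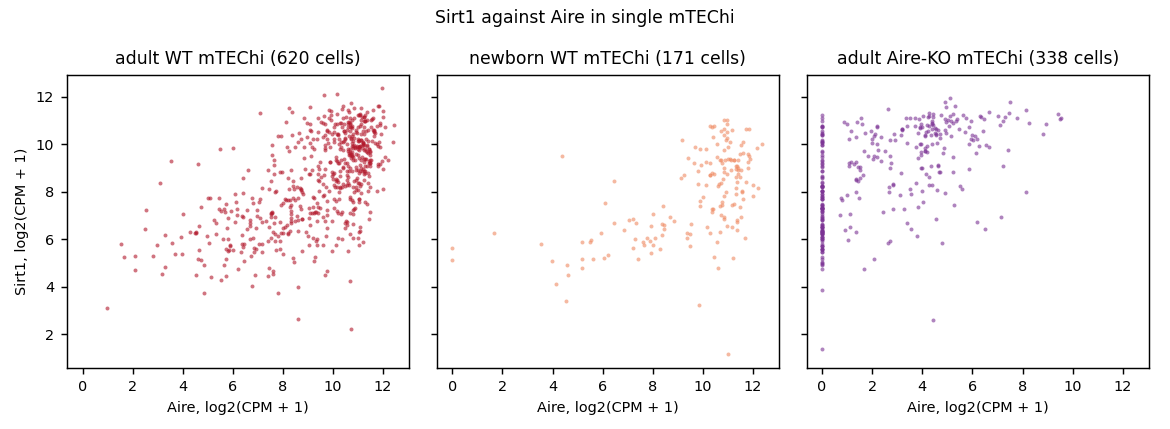
Sirt1 against Aire in single mTEChi cells of 3 groups. Each point is 1 cell, and both axes are log2(CPM + 1). High Sirt1 is found mainly in cells with high Aire in both WT groups, and in the Aire-KO group cells without an Aire read (column at 0) reach lower Sirt1 levels on the whole than cells with more of the residual reads.

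Genes whose level was most like that of Aire over the same adult WT mTEChi cells were Icosl (median Spearman 0.705), Dnmt3l (0.676), Grin2c (0.672), S100a2 (0.667) and Ing1 (0.657). Icosl encodes the ligand of the T cell costimulator Icos and Dnmt3l a cofactor of DNA methylation. Both lie beyond the Aire start on chromosome 10. Dnmt3l (78041947 to 78063622, plus strand) overlaps Aire, and Icosl (78069302 to 78083913, plus strand) begins 25692 bases away. Pfkl, on the other side (19939 bases away), had 0.290 and was chosen after its values were seen. In newborn mTEChi Icosl and Dnmt3l were at 0.740 and 0.732, and in Aire-KO mTEChi, over the residual Aire reads, at 0.463 and 0.550.

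Lowest in likeness were Abhd17c (-0.60), Klf3 (-0.55), Calm2 (-0.54), Vmp1 (-0.54) and Ptprf (-0.54). Over the 13 pools, which share the contrast of sorts, the genes most like Aire in log2(CPM + 1) were Cyp51 (Pearson 0.945), Klk1b26 (0.943), Tac2 (0.939), Ccl22 (0.934) and S100a9 (0.925) among 11309 genes, and Sirt1 was at 0.738. The pool ranking includes the Aire-KO pools, in which Sirt1 and Aire part, whereas the ranking over cells was made in WT cells.

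Levels of different genes were compared per kilobase of exon. In adult WT mTEChi Aire was at 383.6 CPM per kilobase and Sirt1 at 130, followed by Hipk2 at 24.4 and Jmjd6 at 10.8, and Xrcc6 was lowest at 3.71. In Aire-KO mTEChi Sirt1 came first (166.9) and Aire was at 6.83. In adult WT mTEClo Hipk2 (23.6) and Xrcc5 (20.2) came first, Aire was at 8.95 and Xrcc6 again lowest (6.55). Xrcc5 took the first place in both Aire-KO and newborn mTEClo (43.3 and 44.1) and in newborn cTEC (51.8), as against 8.72 in adult WT mTEChi.

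Because the Ku dimer needs both subunits, reads of both were looked for in the same thinned cells. Both Xrcc5 and Xrcc6 had a read in 35.6% of adult WT mTEChi cells (exact 95% interval 31.9 to 39.6%), 41.5% of newborn mTEChi cells (34.0 to 49.3%) and 27.8% of Aire-KO mTEChi cells (23.1 to 32.9%). The shares were 66.1% (60.9 to 71.01%), 93.5% (87.7 to 97.2%) and 75.3% (67.7 to 81.9%) in the corresponding mTEClo groups. These intervals too are over cells, cover counting error only and leave out the spread between pools. Neither gene had a read in 17.6% of adult WT mTEChi cells and in 3.08% of adult WT mTEClo cells. The median Xrcc5 level of a cell was 1.61 CPM in adult WT mTEChi, about the value of 1 read in a cell of median depth, so a cell without reads is not shown to lack the transcript.

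Among partners themselves, the within-batch correlations over adult WT mTEChi cells were weak. The pairs farthest from 0 were Top2b with Xrcc5 (0.29), Sirt1 with Top1 (-0.27) and Top1 with Top2b (0.27), each with the same sign in 8 batches, and Xrcc5 with Xrcc6 was at 0.21 (0.03 to 0.38). Pairs with Prkdc or Jmjd6 lay between -0.15 and 0.19.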

How the data were processed

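Per the study's methods, the authors trimmed reads with fastp 0.20.0, aligned them with STAR 2.7.3a to mm10, removed reads of low mapping quality with SAMtools 1.9 and duplicates with Picard 2.21.1, counted reads per Ensembl gene with HTSeq 0.11.2 without regard to strand, and kept cells by their depth and genes detected. The deposited table holds these raw counts. A second deposited table holds the authors' GeTMM values, a score normalized for length and library, used here only to check the order of genes per kilobase, which was the same in 5 of 8 groups. Reads of overlapping or antisense genes cannot be told apart.

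The 2148 labelled samples gave 1980 cells, since the labels list 2 runs for 168 of them. Counts were summed over cells of a group with the same age and sex into 13 pools. The 11 mTEC pools were fitted together with edgeR 4.0.16 (quasi-likelihood, TMM scaling, low-count filter by filterByExpr), and cTEC against mTEClo in a fit of all pools. Groups of 1 pool borrowed the spread of the others, and the p-values measure the spread between pools only, since the mice are not numbered. Calls were Benjamini-Hochberg adjusted p under 0.05 over all genes tested. Alternatives used DESeq2 1.42.0, limma 3.58.1, other scaling, no filter, experimental batches as units, age and sex as a block, cells thinned to 200000 reads, a fold of at least 2, cells with fewer than 5 Mki67 reads, and each pool left out. The age and sex block left 1 residual degree of freedom, against 5 in the main fit, so calls lost or gained with it are weak evidence. Steps on many genes were tested on simulated data. No doublet caller was run, as 1 cell was sorted to a well, and wells with more than 1 cell were not looked for. Correlations were taken within batches of at least 20 cells.

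The members and lists were chosen with earlier results of these data known. The text names all members, the called genes of each list (at most 6, by smallest adjusted p) with Top2a and Parp1, and the 5 genes most like or unlike Aire. A gene that this rule would name is not reported here. A direction is read only where a log2 fold change exceeds its SE. R 4.3.3 and Python 3.11.15 were used.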

Additional observations from a re-analysis of the deposited data

How the results depend on the processing

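For the log2 fold changes of the 9 genes, in 34 alternative values the threshold was passed in addition and in 11 no longer. The sign differed in 7.64% of the alternative values, 76 of them for changes within their SE, and 1 for a larger one, the difference of the Aire-KO effect on Aire between sorts (-3.83 with limma, against 2.10), and the cause was not tested. For mTEChi against mTEClo, the 3 genes called became 5 with DESeq2 (Top2b and Xrcc6 added) and 5 with limma (Xrcc5 and Xrcc6). The 3 became 6 with experimental batches as units, several of which come from the same pool, so that spread is partly technical. With thinned cells they became 4 (Xrcc5 and Xrcc6 added, Top1 lost). They became 2 (Aire and Sirt1) with age and sex as a block, with no filter and with a fold of at least 2, and 2 to 4 with a pool left out. The number of all genes called there was 5183, with 11600 by DESeq2, 16887 over batches, 3026 with age and sex as a block, 3295 without cells holding 5 or more Mki67 reads and between 4.79% and 15% of genes with a pool left out (fewest without mTEClo pool 2). For Aire-KO against WT mTEChi 0 became 1 (Aire) with DESeq2, the age and sex block, thinned cells, batches and limma, and for mTEClo 0 became 1 (Aire) with the first 4 of these and with no filter. For cTEC against mTEClo 0 became 2 with DESeq2 (Aire and Hipk2) and with the block (Aire and Xrcc5), 1 (Aire) with thinned cells, limma and no filter, and 0 to 1 with a pool left out. Over batches newborn against adult gave 1 in mTEChi (Sirt1) and 1 in mTEClo (Aire). The correlation of Jmjd6 with Aire ranged from -0.274 to 0.0352 with a pool left out, the first of these over 2 batches. No paired analysis was possible because the replicate numbers shared between groups name single cells of different sorts, and the newborn sorts, which share batches, were set side by side within them with no fit. Groups of 1 pool limit every contrast but that of the adult WT mTEC sorts.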

Other observations

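The genes most like Aire fell into different sets when the Aire-KO cells were looked at. The 5 genes that followed Aire most closely from cell to cell in adult WT mTEChi were all at a level in Aire-KO mTEChi no lower than in WT: Icosl at 808.3 CPM against a WT mean of 564.6, Dnmt3l at 99.5 against 83.4, Grin2c at 314.99 against 213.6, S100a2 at 226.6 against 146.4 and Ing1 at 354.2 against 302.4. The 5 genes most like Aire over the pools were all lower there, with Klk1b26 at 4.70 CPM against 28.5, Tac2 at 0.0580 against 46.9, Ccl22 at 3.37 against 115.8, S100a9 at 1.34 against 32.2 and Cyp51 at 42.8 against 82.8. The pool ranking used the Aire-KO pools, so that its genes are low there is partly a result of the choice, and none of these differences was tested.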
